A study of Mus musculus with 24 samples.

Results

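The 7 genes described here, Neurod6, Fezf2, Tbr1, Neurod2, Emx1, Slc17a7 and Lhx2, mark the excitatory projection neurons of the cerebral cortex. All probe sets (groups of short oligonucleotides that report 1 transcript) whose single gene symbol in the platform annotation was one of these were taken, which gave 10 of 34945 single-symbol probe sets, or 7 of 18193 genes. They were measured in bulk RNA on 24 Affymetrix arrays, 6 in each of 4 groups. The groups were striatum of HdhQ111/HdhQ111 mice, striatum of Hdh+/Hdh+ mice, and cerebellum of each genotype. The first carry 2 copies of a knock-in allele of Hdh, the mouse huntingtin gene, with an expanded CAG repeat (called Q111 below), and the second are wild type, which the labels also call Q7/Q7. An expanded CAG repeat in huntingtin causes Huntington's disease. Ages were given only as 3 to 10 weeks for every group, with no sex or strain. The replicates are labelled biological but no label ties an array to a mouse, so the p-values describe variation among these arrays, part of which may be technical.

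Projection neurons of the cortex release glutamate, which the vesicular transporter encoded by Slc17a7 loads into synaptic vesicles. Their identity is set by transcription factors of several families: the basic helix-loop-helix factors Neurod2 and Neurod6, the zinc finger factor Fezf2 of subcerebral projection neurons, the T-box factor Tbr1 of corticothalamic neurons, and the homeodomain factors Emx1 and Lhx2 of the dorsal telencephalon. The striatum lies directly beneath the cortex and consists mostly of GABA-releasing projection neurons of a different lineage, which receive cortical axons. In the cerebellum, granule neurons also make Neurod2 and Slc17a7.

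The deposited values are GCRMA values, read here as log2, with array medians from 3.38 to 3.51. Probe sets entered the tests when they averaged 4 or more over the arrays of either tissue, and a value under 4 is treated here as near background. Of the 10 member probe sets 7 passed this filter, and at least 1 passed for each gene except Emx1. The arrays carried their labelled tissue's markers: of 21 tested striatal projection neuron genes, 20 were called higher in wild-type striatum than in wild-type cerebellum by limma, and all 8 tested granule neuron genes were called lower there. In wild-type mice 30.6% of all tested probe sets were called higher in striatum and 41.2% lower.

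Between the tissues, the cortical genes divided into those with and those without a cerebellar signal. Neurod6 read 5.86 ± 0.34 in wild-type striatum (SD, n = 6) and was under 4 on all 6 wild-type and all 6 Q111 cerebellum arrays. Lhx2 read 6.26 ± 0.26 in wild-type striatum, and its cerebellum values lay between 2.05 and 2.15. With values under 4 set to 4, Neurod6 was at least 3.64-fold and Lhx2 at least 4.78-fold higher in wild-type striatum (limma adjusted p = 3.67e-10 and 2.30e-21 on the values as deposited). Fezf2, at 4.11 ± 0.26 in wild-type striatum, was at or near background in both tissues, since 3 of these 6 striatum arrays and all 12 cerebellum arrays were under 4, so no fold is given.

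Tbr1 read 7.35 ± 0.54 in wild-type striatum and 4.04 ± 0.21 in wild-type cerebellum (SD, n = 6 each), where 4 of 6 arrays reached 4, and was at least 9.44-fold higher in striatum with the same floor (limma adjusted p = 1.13e-11 as deposited). The reverse held for the genes that granule neurons share. Slc17a7 read 8.79 ± 0.68 in wild-type striatum and 11.40 ± 0.13 in wild-type cerebellum, 6.11-fold lower in striatum (limma adjusted p = 1.15e-09). The Neurod2 probe set that was brightest over all 24 arrays read 4.15 ± 0.35 in wild-type striatum, with 4 of 6 arrays at 4 or more, and 7.62 ± 0.45 in wild-type cerebellum, at least 10.7-fold lower in striatum with that floor (limma adjusted p = 5.77e-14 as deposited), and the other tested Neurod2 probe set had the same direction. On the values as deposited all 7 tested member probe sets were called between tissues, against 71.8% of all probe sets. With values under 4 set to 4 the call of Fezf2 was lost (0.14 log2, limma adjusted p = 0.354), and a member near background in 1 tissue could pass the filter only through the other. The lowest value on an array was 0.36 to 0.38 in striatum and -0.766 to -0.662 in cerebellum. The sources used here do not say whether both tissues went through 1 normalisation, so levels between tissues are less certain than those within one.

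**Figure D1:**
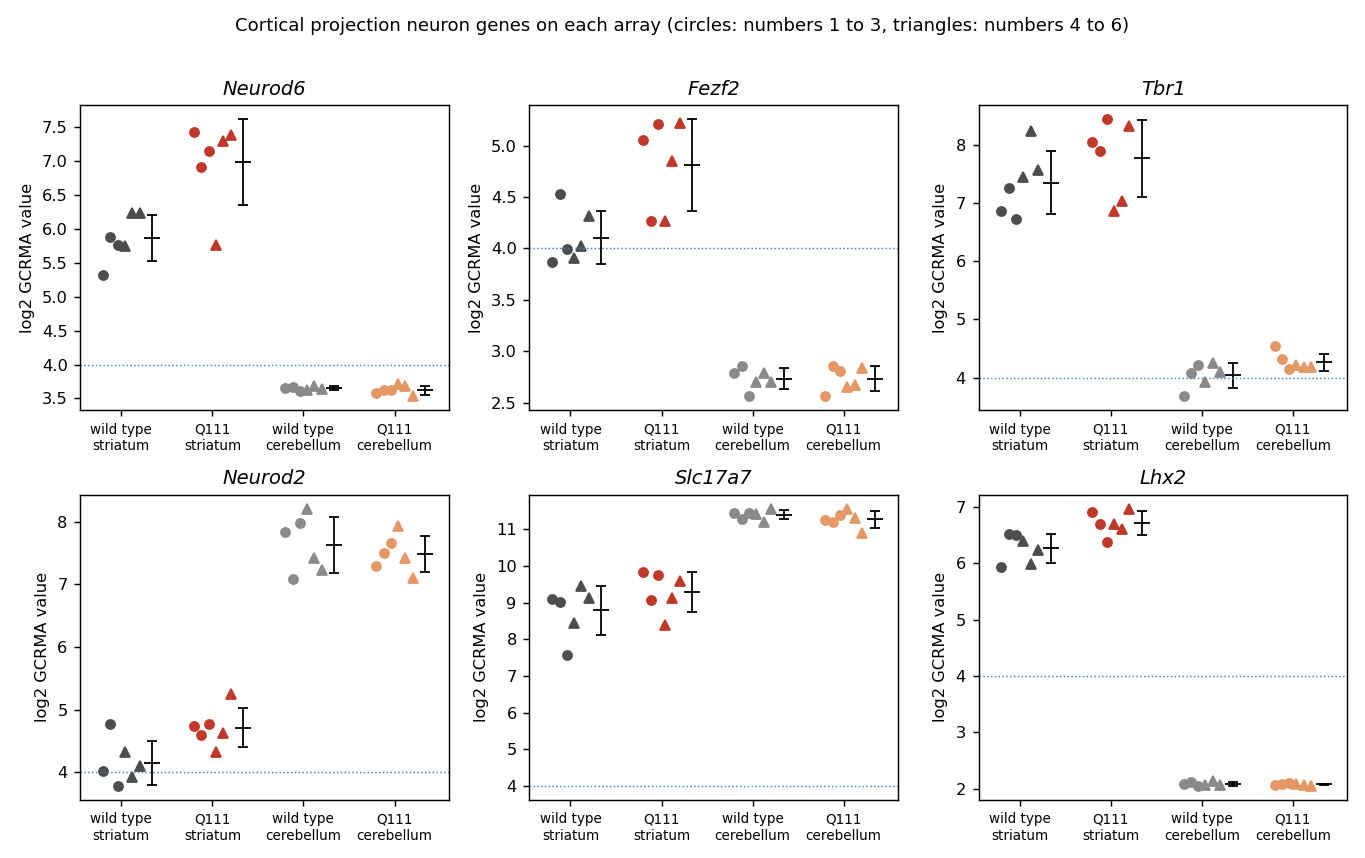
Log2 GCRMA value of the brightest tested probe set of 6 genes on each of the 24 arrays (y axis) in the 4 groups (x axis). Points are arrays, circles for replicate numbers 1 to 3 and triangles for 4 to 6, bars are the mean ± SD over 6 arrays, and the dotted line is the value of 4 used as the filter. Neurod6, Fezf2 and Lhx2 lie under 4 on all cerebellum arrays, and in striatum 1 Q111 array lies apart from the others for Neurod6, at 5.76.

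In striatum, 3 of the cortical genes were higher in Q111 mice than in wild type. Neurod6 rose 2.18-fold, Fezf2 at least 1.59-fold (with values under 4 set to 4) and Lhx2 1.36-fold, and 0 fell. These are 3 of 7 tested member probe sets (limma adjusted p under 0.05), where 2.87% of all 20738 tested probe sets were called, 0.834% higher and 2.03% lower. The members were chosen with earlier results of these data known, so their share of calls is a description. The split of all calls moved with the scaling, from 173 higher and 422 lower as deposited to 310 and 332 after quantile normalisation, and the same 3 members were called either way. The 6 tested genes, by brightest probe set, had a median log2 difference of 0.54, and all 10766 genes had a median of -0.030. In bulk samples, more cells of a type and more RNA per cell cannot be told apart.

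Neurod6, a neuronal differentiation factor, ran from 5.32 to 6.23 with a median of 5.82 on the wild-type striatum arrays, and from 5.76 to 7.42 with a median of 7.22 on the Q111 arrays. Of the 6 Q111 arrays 5 lay above every wild-type array, and array 4, at 5.76, lay inside the wild-type range, so the groups overlapped. The difference was 1.12 log2 (SE 0.20, 95% interval 0.72 to 1.53; limma adjusted p = 0.00345), which only 5 of 10766 genes exceeded. The two-sided exact permutation p over 6 against 6 arrays was 0.00866 (0.101 adjusted over the 20 tests of member probe sets in both tissues; the smallest possible is 0.00216).

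Fezf2, which specifies the cortical neurons that project to brainstem and spinal cord, ran from 3.87 to 4.53 with a median of 4.01 in wild type and from 4.26 to 5.22 with a median of 4.95 in Q111. All 6 Q111 arrays lay above the wild-type mean and 4 above every wild-type array. The difference was 0.71 log2 (SE 0.15, 95% interval 0.40 to 1.01; limma adjusted p = 0.0132; exact permutation p = 0.0152, adjusted 0.101). Since 3 wild-type arrays were under 4, only the bound of 1.59-fold given above is stated as a fold. Lhx2 ran from 5.93 to 6.52 with a median of 6.31 in wild type and from 6.37 to 6.96 with a median of 6.69 in Q111, with 5 of 6 Q111 arrays above every wild-type array. Its difference was 0.44 log2 (SE 0.097, 95% interval 0.24 to 0.64; limma adjusted p = 0.0163; exact permutation p = 0.0108, adjusted 0.101).

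These calls depended on how the spread was estimated. The model shares 1 spread over all 4 groups, and the SD of Neurod6 was 0.63 in Q111 striatum and 0.065 in Q111 cerebellum, where the gene was near background; for Lhx2 the SDs were 0.21 and 0.014. With the 12 striatum arrays alone, which called 2.37% of all probe sets, Neurod6 stayed past the threshold (SE 0.26, 95% interval 0.56 to 1.68; limma adjusted p = 0.0429) and Fezf2 and Lhx2 did not (SE 0.19 and 0.13; limma adjusted p = 0.0726 and 0.0899).

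The other 3 genes were higher on average in Q111 striatum and missed the threshold. For Neurod2, the brightest probe set ran from 3.78 to 4.77 (median 4.06) in wild type and from 4.32 to 5.24 (median 4.69) in Q111, a difference of 0.56 log2 (SE 0.19, 95% interval 0.16 to 0.96; limma adjusted p = 0.109). A further Neurod2 probe set differed by 0.66 (SE 0.30, limma adjusted p = 0.237), with 4 of 6 Q111 arrays and 1 of 6 wild-type arrays at 4 or more. The third was under 4 on all 24 arrays. Slc17a7, the vesicular glutamate transporter, ran from 7.59 to 9.46 (median 9.06) in wild type and from 8.39 to 9.85 (median 9.37) in Q111, a difference of 0.51 (SE 0.25, 95% interval 0.0024 to 1.02; limma adjusted p = 0.262). Tbr1 ran from 6.72 to 8.23 (median 7.35) and from 6.86 to 8.43 (median 7.97), a difference of 0.42 (SE 0.24, 95% interval -0.083 to 0.92; limma adjusted p = 0.365). The wild-type and Q111 arrays overlapped over most of their ranges for both.

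Both Emx1 probe sets were under 4 on all 24 arrays and were not tested. The brighter one read between 2.33 and 2.54 in wild-type striatum and between 2.36 and 3.08 in Q111 striatum, where arrays 1, 3 and 6 read 2.92, 3.08 and 2.96. The fainter one stayed between 1.61 and 1.66 on all striatum arrays. With no filter, the difference of the brighter probe set in striatum was 0.29 (SE 0.098, limma adjusted p = 0.179).

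**Figure D2:**
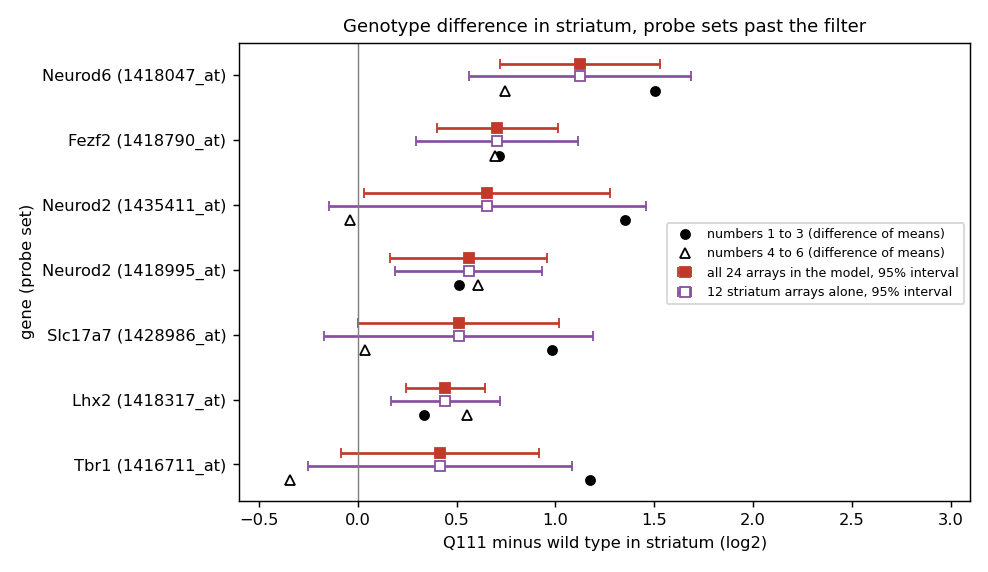
Q111 minus wild type in striatum (x axis, log2) for the 7 tested member probe sets (y axis). Filled squares carry the 95% interval of the model with all 24 arrays, open squares that with the 12 striatum arrays alone, and circles and triangles are differences of means within replicate numbers 1 to 3 and 4 to 6. The circles and triangles lie close for Fezf2 (0.72 and 0.70) and far apart for Tbr1 (1.17 and -0.34).

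The promoter sequences of the 3 genes called higher in striatum are shown with that of Tbr1, a member that was not called and the one with the most motif matches. Each holds 250 bases before and 50 after a transcription start annotated by RefSeq in GRCm38.p6, written 5′ to 3′ on the gene's strand: Neurod6 at chr6:55681214-55681513 (minus), Fezf2 at chr14:12345816-12346115 (minus), the second of 2 Lhx2 starts at chr2:38351058-38351357 (plus) and Tbr1 at chr2:61804203-61804502 (plus). All 7 members matched the table by symbol. Capitals mark matches on either strand to CAGATG, an E-box that NeuroD factors bind, to TAATTA, a homeodomain core site, or to GGTGTGA, the core of a T-box site.
Neurod6: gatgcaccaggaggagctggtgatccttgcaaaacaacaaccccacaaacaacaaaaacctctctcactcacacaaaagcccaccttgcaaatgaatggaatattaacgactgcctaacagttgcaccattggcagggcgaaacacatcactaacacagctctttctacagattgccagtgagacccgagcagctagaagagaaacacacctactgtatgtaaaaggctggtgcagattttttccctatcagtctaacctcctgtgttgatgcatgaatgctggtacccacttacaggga
Fezf2: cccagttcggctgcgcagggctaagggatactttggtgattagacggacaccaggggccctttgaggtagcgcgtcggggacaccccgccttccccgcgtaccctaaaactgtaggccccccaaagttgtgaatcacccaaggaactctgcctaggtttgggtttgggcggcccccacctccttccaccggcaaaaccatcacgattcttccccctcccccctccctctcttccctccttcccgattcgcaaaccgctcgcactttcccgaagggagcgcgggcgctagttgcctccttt
Lhx2: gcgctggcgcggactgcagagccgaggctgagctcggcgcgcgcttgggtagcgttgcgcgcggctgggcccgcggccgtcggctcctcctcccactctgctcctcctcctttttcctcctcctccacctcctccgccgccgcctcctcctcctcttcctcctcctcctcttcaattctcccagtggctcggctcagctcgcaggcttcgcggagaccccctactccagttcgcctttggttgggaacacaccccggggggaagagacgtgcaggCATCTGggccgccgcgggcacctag
Tbr1: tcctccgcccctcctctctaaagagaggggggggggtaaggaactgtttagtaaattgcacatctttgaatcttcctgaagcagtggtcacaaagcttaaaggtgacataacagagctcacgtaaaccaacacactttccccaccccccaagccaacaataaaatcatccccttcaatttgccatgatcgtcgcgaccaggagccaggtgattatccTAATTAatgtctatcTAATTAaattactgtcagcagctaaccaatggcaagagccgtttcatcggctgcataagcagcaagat

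The Neurod6 and Fezf2 windows held none of the 3 motifs, the Lhx2 window shown held 1 E-box near its 3′ end, and that of Tbr1 held 2 TAATTA matches, which do not overlap. The window of the first Lhx2 start, at chr2:38339031-38339330 (plus), held none of the 3 and is not shown for that reason. Among all 32851 promoters in the table, 17.2% held CAGATG, 5.29% TAATTA and 3.98% GGTGTGA. The windows also differed in base composition. GC content was 46.3% for Neurod6, 46.0% for Tbr1, 61.3% for Fezf2 and 69.3% for the Lhx2 window shown (74.7% for the other), against a median of 52.7% over all promoters. The observed over expected number of CG dinucleotides was 0.192 for Neurod6 and 0.835 for the Lhx2 window shown, against a median of 0.384. Of the members not shown, the Neurod2 window held 1 CAGATG match, and those of Emx1 and Slc17a7 held 0 matches. In these windows the 3 genes called higher shared neither a motif of these 3 nor a base composition. So few genes and motifs allow no wider conclusion on their regulation.

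In cerebellum 0 of 7 tested member probe sets were called, where 0.458% of all probe sets were, 0.0964% higher and 0.362% lower (limma; by an exact permutation test at an unadjusted threshold of 0.05, 1 of the 10 was below it, Tbr1, with p = 0.0368 and 0.147 adjusted). Slc17a7 ran from 11.21 to 11.56 (median 11.44) in wild type and from 10.90 to 11.55 (median 11.29) in Q111, a difference of -0.13 (SE 0.25, 95% interval -0.64 to 0.38; limma adjusted p = 0.870). The Neurod2 probe set that was brightest over all arrays differed by -0.14 (SE 0.19, 95% interval -0.54 to 0.26; limma adjusted p = 0.801). The other tested Neurod2 probe set, the brighter of the 2 in cerebellum at 7.98 in wild type and 8.04 in Q111, differed by 0.058 (SE 0.30, 95% interval -0.56 to 0.68; limma adjusted p = 0.962), so they differed in sign and neither was called. Tbr1 lay near the filter in both genotypes, at 4.04 ± 0.21 in wild type and 4.27 ± 0.15 in Q111 (SD, n = 6 each). The model shares its spread with striatum, where Slc17a7 and Tbr1 varied more. With the 12 cerebellum arrays alone, which called 0.448% of all probe sets, Slc17a7 had a narrower interval (SE 0.10, -0.34 to 0.090; limma adjusted p = 0.606). Tbr1 then differed by 0.23 (SE 0.10, 95% interval 0.0087 to 0.45; limma unadjusted p = 0.0427, adjusted 0.328). Neurod6, Fezf2, Lhx2 and Emx1 were under 4 on all 12 cerebellum arrays.

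The difference between the genotype differences of the tissues was tested by the interaction in limma, which called 0 of 7 member probe sets (by brightest probe set, 4 of 6 genes had an unadjusted p under 0.05) and 0.0868% of all (18 probe sets, 0.0434% in each direction; 2100 had an unadjusted p under 0.05). It was largest for Neurod6, at 1.15 log2 (SE 0.28, 95% interval 0.58 to 1.72; limma adjusted p = 0.0922), followed by Fezf2 at 0.71 (SE 0.21, limma adjusted p = 0.175) and Neurod2 at 0.70 (SE 0.27, limma adjusted p = 0.361). All 7 were above 0. So no member passed the test of a difference between the tissues over all arrays. Neurod6, Fezf2 and Lhx2 were under 4 on all 12 cerebellum arrays. Their interaction therefore mostly repeats the striatal difference and cannot show how they respond in cerebellum. Without Q111 striatum array 4, the lowest Q111 striatum array for Neurod6 at 5.76, the Neurod6 interaction was 1.39 and passed the threshold (limma adjusted p = 1.26e-04). Leaving out the lowest Q111 array raises such a difference by itself. In the striatum comparison, leaving out array 4 raised the Neurod6 difference to 1.37 (limma adjusted p = 4.88e-07). Leaving it out also brought the second tested Neurod2 probe set past the threshold, at 0.96 (SE 0.24, limma adjusted p = 0.0395). That probe set averaged 3.91 over the striatum arrays, had passed the filter through cerebellum, and read 2.74 on array 4. Over all arrays with values under 4 set to 4, its striatal difference was 0.45 (limma adjusted p = 0.174).

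The replicate numbers of the labels divide the arrays into numbers 1 to 3 and 4 to 6, and the genes differed in how far their striatal difference repeated between these sets. In this order of the sets, that of Fezf2 was 0.72 and 0.70, that of Lhx2 0.33 and 0.55, and that of the brightest Neurod2 probe set 0.51 and 0.61. Neurod6 differed by 1.505 and 0.74. Slc17a7 differed by 0.99 and 0.036, the second Neurod2 probe set by 1.35 and -0.041, and Tbr1 by 1.17 and -0.34. Fitted alone, numbers 1 to 3 called Neurod6 and Tbr1 (limma adjusted p = 0.0221 for Tbr1), and numbers 4 to 6 called 0 member probe sets (limma; the lowest adjusted p was 0.0529, for Lhx2). Whether the sets differ in their genotype difference was not tested.

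For Tbr1 the change of sign came from both genotypes. Its wild-type mean was 6.95 in the first set and 7.74 in the other, and its Q111 mean was 8.12 and 7.40. Averaged over the genotypes the 2 sets were nearly equal, at 7.53 and 7.57, as they were for Neurod6 (6.41 and 6.44) and Slc17a7 (9.06 and 9.03). Over all tested probe sets the difference between the set means in striatum had an SD of 0.0534, against 0.211 for the difference between genotypes. No label records a step that makes the sets equal. If the values did pass through one, a model without a term for the set counts too many residual degrees of freedom (20 in place of 18) and its errors and p-values are too small. With that term the striatal differences of Neurod6, Fezf2 and Lhx2 stayed past the threshold (limma adjusted p = 0.00848, 0.0277 and 0.0332). Where the sets are equal, a wild-type mean above its genotype's average in 1 set comes with a Q111 mean below.

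Within each genotype, the members other than Lhx2 tended to be high or low on the same striatum arrays. Each value was taken as a deviation from the mean of its genotype, and the deviations of 2 genes were correlated over the 12 arrays, which share their RNA extract and normalisation and the near equality of the number sets. Among the 10 pairs of Neurod6, Fezf2, Tbr1, Neurod2 and Slc17a7, Pearson's r ran from 0.396 (Tbr1 and Neurod2) to 0.741 (Tbr1 and Slc17a7; Spearman's rho 0.776), with 0.692 for Neurod6 and Fezf2 (rho 0.692). The 5 pairs with Lhx2 ran from -0.344 (Slc17a7; rho -0.406) to 0.447 (Neurod2; rho 0.392). Q111 array 4 was the lowest Q111 array for Neurod6 (by 1.22 below the Q111 mean), Tbr1 (0.91 below), Slc17a7 (0.91 below) and Neurod2 (0.40 below). For Fezf2, Q111 arrays 2 and 4 were both 0.55 below. Among the wild-type arrays number 3 was the lowest for Tbr1, Neurod2 and Slc17a7 (1.20 below for Slc17a7). Lhx2 deviated by only -0.016 on Q111 array 4.

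**Figure D3:**
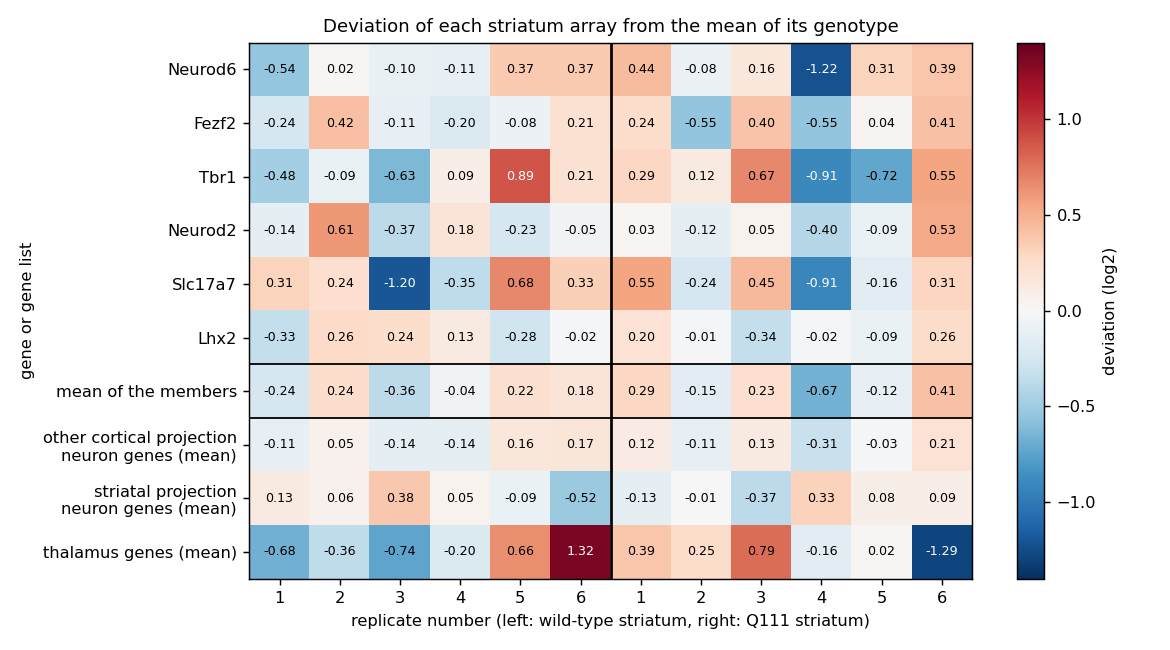
Deviation of each striatum array from the mean of its genotype (colour and printed value, log2) for the brightest probe set of 6 genes, their mean, and the mean level of 3 gene lists (y axis), by replicate number in wild type and Q111 (x axis). Q111 array 4 is low for Neurod6, Fezf2, Tbr1, Neurod2 and Slc17a7 and for the other cortical genes. It is high for striatal projection neuron genes, and Lhx2 does not follow this pattern.

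The mean log2 value of the 6 genes ran from 5.72 to 6.33 on the wild-type striatum arrays and from 6.05 to 7.12 on the Q111 arrays. This order of arrays was compared with lists of other genes, all chosen with earlier results of these data known. The first held 30 further genes of cortical projection neurons, of which 25 had a probe set of their own and 23 were tested. In wild-type striatum the 23 ran from 4.32 for Zfpm2 to 11.21 for Mef2c, against 4.11 to 8.79 for the 6 members. Against wild-type cerebellum, limma called 13 of them higher in striatum and 6 lower, where it called 30.6% and 41.2% of all probe sets. Which cells made their RNA in striatum was not tested, so their level is not a measure of cortical tissue alone. Of the 23, 0 were called in striatum by limma (6 had an unadjusted p under 0.05, all 6 higher) and 17 were higher in Q111, with a median difference of 0.23. Over all 10766 genes 19.2% had an unadjusted p under 0.05 in striatum and 42.2% were higher. Their largest differences were those of Stx1a, which encodes a syntaxin of the presynaptic membrane, at 0.62 (limma adjusted p = 0.0755; 0.77 and 0.47 in the number sets), and the transcription factor Sox5 of deep-layer neurons, at 0.59 (limma adjusted p = 0.0810). Several of the 17 changed sign between the number sets, such as Cck (0.92 and -0.17) and Rorb (-0.65 and 0.99). In cerebellum limma called 0 of the 23 (5 had an unadjusted p under 0.05, 1 of them higher, against 14.4% of all genes), 7 were higher, against 33.9% of all genes, and the largest difference was that of Nr4a2, at -1.41 (limma adjusted p = 0.05002). There, 4 of the 23 averaged under 4 and had passed the filter through striatum, so these 4 say little about cerebellum.

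The mean level of these 23 genes ran from 8.07 to 8.38 in wild-type and from 8.10 to 8.62 in Q111 striatum. In numbers 1 to 3 this level was 8.14 in wild type and 8.46 in Q111. In numbers 4 to 6 it was 8.27 and 8.37, a smaller difference. As deviations from the genotype means, it correlated with the mean of the 6 members at r = 0.942 over the 12 arrays (rho 0.790; 0.886 without the 2 arrays farthest from the mean). The 21 striatal projection neuron genes ran from 9.92 to 10.81 in wild type and from 9.91 to 10.60 in Q111 and correlated with the members at -0.645 (rho -0.545; -0.717 without those 2 arrays). Of these 21 genes 1 was called, where 2.87% of all probe sets were. It was the receptor gene Gpr149 at -0.38 (limma adjusted p = 0.0467), which lay near the filter value of 4 in both genotypes. An unadjusted limma p was under 0.05 for 6, all lower, against 19.2% of all genes. Of the 21, 6 were higher, against 42.2% of all genes, and the median difference was -0.21. In numbers 1 to 3 their mean level was 10.63 in wild type and 10.11 in Q111. In numbers 4 to 6 it was 10.25 and 10.44, so for this level the comparison over all striatum arrays pools opposite signs. Gpr149 was lower in both sets (-0.362 and -0.397).

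The level of the further cortical genes was also put into the model as a covariate over the striatum arrays, an alternative added after the values were seen. This level was itself higher in Q111 striatum, at 8.41 against 8.21 in wild type, and was known to follow the members. Smaller differences for members that follow it were therefore built in, and they do not measure a share due to cortical tissue. With this covariate the Neurod6 difference was 0.60 (SE 0.13, limma adjusted p = 0.0390), against 1.12 without the covariate. Fezf2 differed by 0.35 (SE 0.12, limma adjusted p = 0.180), Slc17a7 by -0.094 (SE 0.19, limma adjusted p = 0.856) and Tbr1 by -0.16 (SE 0.19, limma adjusted p = 0.738). The brightest Neurod2 probe set differed by 0.36 and the other by -0.13, against 0.56 and 0.66 without the covariate (limma adjusted p = 0.484 and 0.813). Lhx2 differed by 0.45, as before, with a wider error (SE 0.12, limma adjusted p = 0.0917). With the level of the striatal projection neuron genes as the covariate in place of it, Neurod6, Fezf2 and Lhx2 differed by 0.95, 0.60 and 0.49 and all 3 passed (limma adjusted p = 0.00738, 0.0277 and 0.0117).

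**Figure D4:**
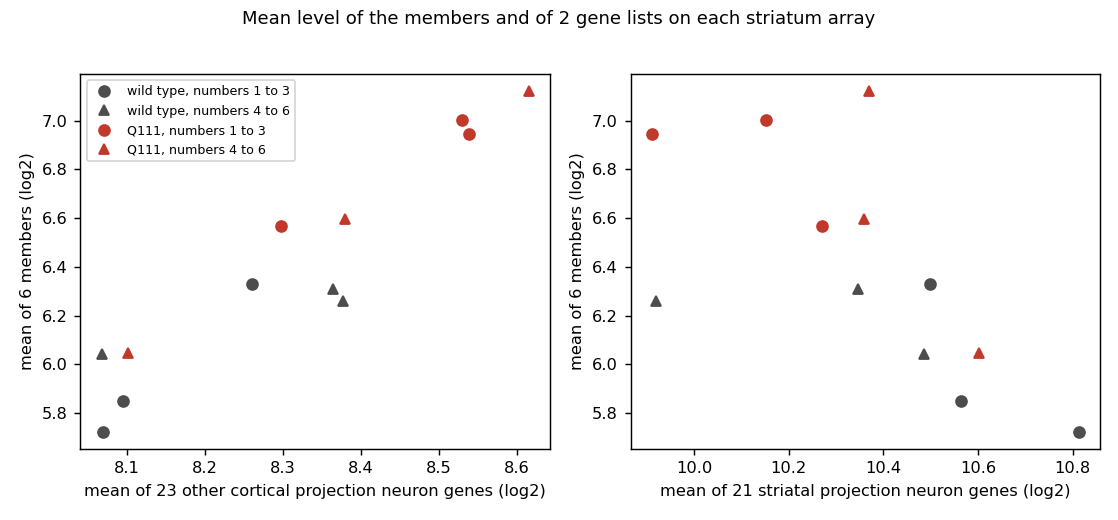
Mean log2 value of the brightest probe sets of 6 members (y axis) against the mean log2 value of 23 other cortical projection neuron genes (left, x axis) and of 21 striatal projection neuron genes (right, x axis) on the 12 striatum arrays. Points are arrays, grey for wild type and red for Q111, with circles for numbers 1 to 3 and triangles for 4 to 6. The members rise with the other cortical genes (r = 0.942 within genotypes), and Q111 array 4 lies among the wild-type arrays at 6.05.

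Relatives of the members in their gene families were fewer and did not pass. Of 11 listed, 4 were tested and limma called 0 in striatum (0 had an unadjusted p under 0.05). Slc17a6, the vesicular glutamate transporter of thalamic neurons, differed by 0.51 (limma adjusted p = 0.648), or by 2.02 and -1.01 in the number sets. Neurod1, abundant in granule neurons, differed by 0.44 (limma adjusted p = 0.266), or by 1.08 and -0.19. In wild-type mice Neurod1 was lower in striatum than in cerebellum by 9.99 log2, so among the NeuroD genes with a cerebellar signal it shared its direction with Neurod2.

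Of other tissues and cell types that a striatal dissection could hold, limma called 0 genes in striatum: 0 of 7 tested thalamus genes (median difference 0.13, largest Slc17a6), 0 of 2 hippocampus genes (Fibcd1 at 0.094), 0 of 8 choroid plexus genes (median -0.29, Folr1 at -0.58), 0 of 11 myelinating oligodendrocyte genes (median -0.20, Opalin at -0.48), 0 of 5 interneuron genes (median 0.00035, Vip at 0.82, limma adjusted p = 0.120), 0 of 8 granule neuron genes and 0 of 6 Purkinje cell genes. An unadjusted p was under 0.05 for 4 oligodendrocyte genes, all lower, for 1 interneuron gene, which was higher, for 1 Purkinje cell gene, which was lower, and for 0 genes of the other 4 lists, against 19.2% of all genes. Of the tested genes, 6 of 8 granule neuron, 2 of 6 Purkinje cell, 1 of 2 hippocampus and 1 of 8 choroid plexus genes averaged under 4 in striatum and had passed the filter through cerebellum, so their counts there say little. Among the Purkinje cell genes, Gad1 and Calb1 read 13.35 and 11.70 in wild-type striatum, and Pvalb is also in the interneuron list. These genes therefore do not report Purkinje cells alone in striatum. The thalamus genes ran from 6.34 to 8.40 in wild-type and from 5.87 to 7.94 in Q111 striatum, and the choroid plexus genes from 4.97 to 8.59 and from 5.79 to 8.89. In numbers 1 to 3 the mean level of the thalamus genes was 6.49 in wild type and 7.63 in Q111. In numbers 4 to 6 it was 7.67 and 6.68, so the comparison over all striatum arrays pools differences of opposite sign. The level of the thalamus genes correlated with that of the members at 0.221 over the 12 arrays and at 0.673 without the 2 arrays farthest from the mean. For the 5 interneuron genes these values were 0.590 and 0.683, and for the 4 gene-family relatives 0.623 and 0.743. The part of these cell types in the members' differences was not tested.

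Among the 10760 other genes, 85 followed the members' mean deviation in striatum with r above 0.8, and 44 opposed it with r under -0.8. The 8 genes most like it were Cd34 (r = 0.942), Rims1, which encodes a scaffold of the presynaptic active zone (0.941), Ttc7b (0.936), Stard8 (0.924), the potassium channel subunit gene Kcnmb4 (0.916), Dlgap1, which encodes a postsynaptic scaffold (0.915), Fgf13 (0.912) and Frzb (0.912). Of these, Dlgap1 was called higher in Q111 striatum, at 0.33 (SE 0.088, limma adjusted p = 0.0445), and the others were not. The 5 most opposed were Tmem98 (-0.945), Ctsz (-0.943), Srpr (-0.931), Kif17 (-0.923) and Slc32a1, the vesicular transporter of GABA (-0.905), and 0 of these were called. These correlations rest on 12 arrays that share their number sets and are given as a description.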

How the data were processed

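The authors deposited 1 table of GCRMA values for 24 arrays, per the submitters' processing notes, with no version, log base or genome build given in the sources used here. GCRMA corrects background with a model of probe sequence, normalises between arrays and summarises each probe set. The deposited values ran from -0.766 to 16.33 and were read as log2. Without 64 control probe sets, 45037 remained, and 20738 (46.0%) with a mean of at least 4 in striatum or cerebellum were tested. All 24 arrays entered 1 linear model with 4 group means (limma 3.58.1 in R 4.3.3, 20 residual degrees of freedom), with Benjamini-Hochberg adjustment over all tested probe sets and a threshold of 0.05. The brightest probe set stood for a gene. Single probe sets were also compared by a two-sided exact permutation test (SciPy 1.17.1). Alternatives covered the filter, scaling, variance prior, array weights, replicate number, number set, floor, threshold and each array left out. The members and gene lists were chosen with earlier results of these data known. The text names all member probe sets, up to 3 called genes of a list (otherwise up to 2 with the largest difference), and the 8 genes most like and 5 most unlike the members' mean. Symbols come from the platform annotation of the series and promoter sequences from RefSeq. The number of arrays limits the precision. The labels' replicate numbers were not used as pairs, since in no comparison did all 6 same-numbered pairs deviate together (r over 0.1). Between genotypes r ran from -0.409 to -0.0881 in striatum and from -0.423 to 0.119 in cerebellum. Between tissues it ran from -0.0043 to 0.183 in wild type (3 of 6 over 0.1) and from -0.0547 to 0.142 in Q111 (2 of 6). With nearly equal number sets, the 2 genotypes of a tissue tend to deviate in opposite directions within a set. The check between genotypes therefore cannot exclude pairing.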

Additional observations from a re-analysis of the deposited data

Results flagged for a closer look

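Of 28 combinations of a tested member probe set and a group, 1 held an array far from the other 5, where chance gives about 1 in 20. Neurod6 read 5.76 on Q111 striatum array 4, and 6.91 to 7.42 on the other 5 Q111 arrays, a gap of 0.689 of the group's range.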

How the results depend on the processing

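Neurod6, Fezf2 and Lhx2 kept their direction and their call in striatum whichever of the 12 striatum arrays was left out (the cerebellum arrays, which share the spread, were left out only together), and 3 to 4 member probe sets were then called. The count of member probe sets called was 1 at an adjusted p of 0.01, 1 with the striatum arrays alone, 1 with the level of the other cortical genes as covariate and 0 with numbers 4 to 6 alone. The count over all probe sets in striatum, 595, was 384 with no filter, 316 with number set as a model term, 242 and 251 with numbers 1 to 3 and 4 to 6 alone, 86 and 1344 at an adjusted p of 0.01 and 0.10, 86 with the cortical covariate, and 219 to 689 with each array left out. Tbr1 turned to -0.34 with numbers 4 to 6 alone and to -0.16 with the cortical covariate, and Slc17a7 to -0.094 and the second tested Neurod2 probe set to -0.13 with that covariate. The covariates were chosen after seeing the data.

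In cerebellum 0 member probe sets were called under every setting run, and all calls, 95, were 396 with array weights, 49 with number set as a term, 11 and 18 in the number sets alone, 173 with values under 4 set to 4, 28 and 292 at an adjusted p of 0.01 and 0.10, and 34 to 252 with each array left out. For the interaction the member count was 1, Neurod6, with numbers 1 to 3 alone and at an adjusted p of 0.10, and 0 to 1 with each array left out. All interaction calls, 18, were 11 after median centring, 64 with array weights, 5 with the replicate block, 6 with number set as a term, 10 and 30 in the number sets alone, 41 with values under 4 set to 4, 4 and 119 at an adjusted p of 0.01 and 0.10, and 6 to 50 with each array left out. The Tbr1 interaction turned to -0.45 with numbers 4 to 6 alone. The causes were not tested, apart from the fewer arrays and the other thresholds that some settings impose. Between tissues all 7 member calls held, except that of Fezf2, which was not tested with a filter at a mean of 5 and was 0.14 with values under 4 set to 4.

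The replicate numbers did not meet the rule for pairing, which between genotypes cannot exclude it. With the replicate block the striatum model called 3 member probe sets and 436 in all, and the Neurod6 difference stayed 1.12 (limma adjusted p = 0.00664).

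Signal over background limits Fezf2 and Neurod2 in striatum and Tbr1 in cerebellum, where their values lie near 4. It also limits Neurod6, Fezf2 and Lhx2 in cerebellum, where all 12 arrays were under 4, and Emx1, which never rose above 4.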
